A study of Caenorhabditis elegans with 8 samples.

Results

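Transcript levels of 10 host response genes were followed in chromatin mutants of the nematode Caenorhabditis elegans. The genes were cul-6, skr-3, skr-4, skr-5, eol-1, drh-1, F26F2.1, F26F2.3, F26F2.4 and C17H1.2, out of 39875 genes with a transcript in the tables. They were chosen by name, as genes known to be induced together with pals-5, after high fold changes of pals-5 and C17H1.2 in the double mutant against N2 had been seen in these data. Their values in the double mutant are therefore a description and support no finding, and the other comparisons share the N2 libraries with it. Each gene was followed through 1 transcript, the one with the largest summed base mean over the 3 tables.

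RNA came from whole first-stage (L1) larvae in 4 groups of 2 libraries each. The mutants were spr-5, with allele by101 on chromosome I, met-2, with allele n4256 on chromosome III, and a double mutant with both, and the wild-type strain N2 was the control. The spr-5 product removes methyl groups from lysine 4 of histone H3, and the met-2 product adds them to lysine 9. In every group the larvae were starved, 200 to 250 were pooled for a library, the cultures had been fed OP50 bacteria and kept at 20 °C, and no treatment was applied. Each mutant group stands for 1 allele or 1 pair of alleles. Nothing in the labels says that libraries of a group came from separate cultures, so the p-values measure the spread between these libraries, which may be technical.

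The intracellular pathogen response is a transcriptional programme that the worm intestine turns on during infection by microsporidia or the Orsay virus. pals-5 is its usual reporter. Some genes of the programme encode a cullin-RING ubiquitin ligase, in which the cullin CUL-6 is the scaffold, the Skp1-related proteins SKR-3, SKR-4 and SKR-5 are adaptors, and F-box proteins bind substrates. drh-1 encodes a RIG-I-like helicase of antiviral RNA interference, which also senses virus upstream of the programme.

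The deposited tables hold no value of a single library. They give, for each mutant against N2, a base mean (an average of scaled counts over the 4 libraries in that comparison), a log2 fold change with its standard error (SE), and p-values. Values of single libraries therefore cannot be shown, and the SE is the only measure of uncertainty given. The fold changes and SEs were shrunken by the authors, so at few reads an SE does not show the spread between libraries. A single read was worth a base mean of 0.219 to 0.305 in the spr-5 table, 0.212 to 0.278 in the met-2 table and 0.197 to 0.272 in that of the double mutant. Read totals below follow from these limits, or for cul-6 from the 4 values of a single read, and are sums over the 4 libraries. Since a base mean averages 2 mutant and 2 N2 libraries, neither group's mean can exceed 2 times that value.

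The whole-animal label was checked against marker genes in the authors' deposited table for the double mutant. Base means there were 67973 for unc-54 (muscle myosin), 176 for elt-2 (intestinal GATA factor) and 300.3 for egl-3 (neuropeptide processing). Some other markers of muscle and nerve were low in the authors' deposited table for the double mutant. There hlh-1 was listed at 0, lev-11 at 1.52, rab-3 at 6.65, unc-119 at 0.817 and rgef-1 at 0.655. The remaining markers of these lists were higher in the authors' deposited table for the double mutant. Of muscle, myo-3 had 7268, tnt-2 514 and unc-22 84.1, and of nerve, unc-104 had 48.99 and ric-4 27.7. Of the intestine markers in that comparison, erm-1 and end-3 were low, at 1.91 and 1.63. The other intestine markers lay between 27.1 for mtl-2 and 13783 for asp-1. Hypodermal markers were low, with a summed base mean over 7 genes of 28.1 for the double mutant, 84.95 for met-2 and 48.9 for spr-5 in the authors' deposited tables, and elt-3 was listed at 0. The targeted genes were of no use as a check of the labels, since a mutant allele can still be transcribed. For the spr-5 transcript the authors' deposited tables gave log2 fold changes of 1.26 (SE 0.95) in the double mutant and 0.90 (SE 0.74) in the spr-5 mutant. For the met-2 transcript the authors' deposited tables gave -0.45 (SE 0.97) in the double mutant and -0.43 (SE 0.69) in the met-2 mutant. None of these passed the adjusted p of 0.05.

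The values of the 10 genes in the double mutant are only described here, and all 9 fold changes were above 0. C17H1.2 and eol-1 were called higher there, meaning that the authors' deposited table gave them an adjusted p below 0.05. F26F2.1, F26F2.3, skr-4 and skr-5 had log2 fold changes between 1.95 and 3.68 in the authors' deposited table without passing that threshold. skr-3 and drh-1 had values below 1, cul-6 had almost no reads, and F26F2.4 was listed at 0. Of the 8 genes with an adjusted p, 2 were called higher and 0 lower, in a comparison where 0.636% of 12272 transcripts were called higher and 0.0733% lower. In spr-5 and in met-2, 0 of the 10 genes were called in either direction by the authors' DESeq2 adjusted p, where 0.0101% and 0.0647% of the transcripts tested were called higher and 0 were called lower. Nothing is read from the calls or shares in the double mutant. The high value of C17H1.2 there was seen before the genes were chosen, and cul-6 and F26F2.4 had no adjusted p.

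**Figure D1:**
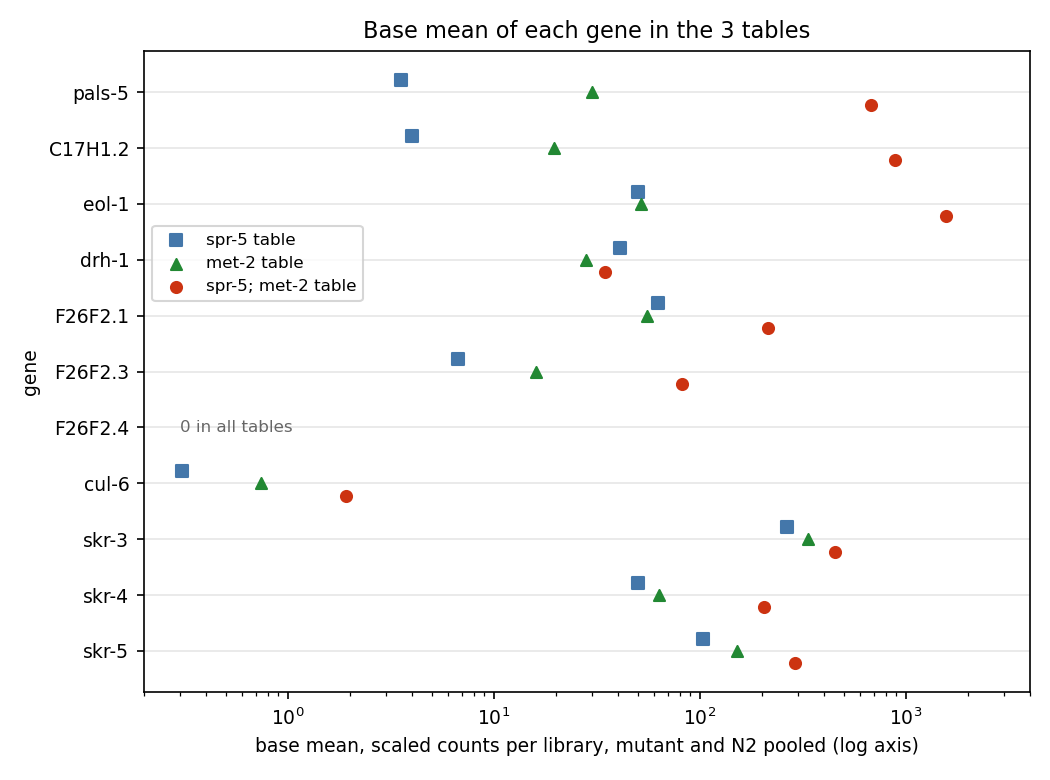
Base mean of each gene in the 3 deposited tables, on a log axis; each point is the authors' mean over the 2 mutant and 2 N2 libraries of 1 comparison, and squares, triangles and circles stand for the spr-5, met-2 and double-mutant tables. pals-5, C17H1.2 and eol-1 had base means of 681, 888 and 1577 in the double-mutant table and of 30.05, 19.5 and 51.7 in the met-2 table, while drh-1 stayed between 28.03 and 40.9.

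The ubiquitin ligase adaptors were all counted well above the level of single reads, and none was called in any mutant. SKR-3, SKR-4 and SKR-5 have 167, 159 and 145 residues in the annotation, and their genes are not next to each other on chromosome V. Base means of skr-3 in the authors' deposited tables were 266 for spr-5, 337 for met-2 and 453 for the double mutant. Those of skr-4 were 49.9, 63.1 and 205, and those of skr-5 were 103, 151 and 290.3, in the authors' deposited tables taken in the same order. skr-3 thus had the most reads of the 3 in every table.

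For skr-4 the log2 fold changes in the authors' deposited tables were 2.28 (SE 1.05) for the double mutant, 0.32 (SE 0.81) for met-2 and -0.33 (SE 0.88) for spr-5. skr-5 had 1.95 (SE 0.94) for the double mutant, 0.70 (SE 0.76) for met-2 and -0.20 (SE 0.79) for spr-5, as the authors' deposited tables give it. skr-3 had the smallest values, at 0.72 (SE 0.96) for the double mutant, -0.02 (SE 0.68) for met-2 and -0.77 (SE 0.87) for spr-5 in the authors' deposited tables. None of these 9 values passed the adjusted p. The 95% interval of skr-3 in the double mutant, -1.17 to 2.61 on the log2 scale, includes the values of both other adaptors. The adaptors belong to 1 family, so their values are uncertain where near-identical stretches share reads. skr-5 also shares 59 of its 619 exonic bases with lsy-27 on the opposite strand, and whether counting used strand is not given in the sources used here. lsy-27 itself had a base mean of 0.817 in the authors' deposited table for the double mutant.

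The scaffold gene cul-6 was barely counted. Its base mean in the authors' deposited tables came to 0.305 for spr-5, 0.743 for met-2 and 1.91 for the double mutant. These stand for 1 read, 3 reads and 7 reads over 4 libraries. The log2 fold changes in the authors' deposited tables were 0.67 (SE 1.24) for the double mutant, 0.09 (SE 0.59) for met-2 and -0.20 (SE 0.61) for spr-5. With so few reads counted, a change of cul-6 was not detectable. Its SE in spr-5, from 1 read, was smaller than the 0.87 of skr-3 there and is not a measured spread. For cul-6 the second listed transcript was at 0 in all 3 tables. In the Ensembl annotation, 173 of the 2281 exonic bases of cul-6 belong to 1 of its 2 transcripts alone, and the rest are common to both.

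F26F2.4 was listed at 0 for both of its transcripts in all 3 tables. Of its 282 exonic bases, 45 belong to 1 transcript alone. Among protein-coding genes with 1 listed transcript, 3.93% of 14547 were at 0 in all tables. Among those with 2 listed transcripts, as cul-6 and F26F2.4 have, 16.7% of 2402 were at 0, and with 3 or more it was 25.97% of 1163. Whether reads shared by transcripts were left out in counting was not tested, so a listing at 0 does not show that the gene was silent. The 8 other genes had 1 listed transcript each.

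The known partners of CUL-6 include the RING protein RCS-1 and the F-box proteins FBXA-75 and FBXA-158. fbxa-75 was called higher in the double mutant, at 5.50 (SE 1.05, adjusted p 8.11e-05) on the log2 scale with a base mean of 345 in the authors' deposited table. In met-2 and spr-5 the authors' deposited tables gave fbxa-75 0.59 (SE 0.91) and -0.32 (SE 0.83), with base means of 10.8 and 4.95. fbxa-158 had 3.27 (SE 1.32) in the double mutant with a base mean of 11.5, and rcs-1 had 1.58 (SE 0.95) with one of 448, in the authors' deposited table, and neither passed. Of the scaffold, adaptor, RING and F-box genes described here, fbxa-75 was thus the only one to pass in the double mutant.

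Relatives of the ligase genes had no call. Of 14 other Skp1-related genes matched, 0 were called by DESeq2 in any of the authors' deposited tables, and their median log2 fold change in the double mutant was -0.71. Only 7 of the 14 had an adjusted p for the double mutant, 9 for met-2 and 13 for spr-5, so the others could not be called. Of all transcripts tested in the double mutant, 0.636% were called higher and 0.0733% lower. Counts of 0 among so few genes, here and for the cullins below, are near these shares, so nothing is read from them. skr-2 had 2.44 (SE 0.97) in the double mutant, while its close relative skr-1, the core adaptor, had 0.05 in the authors' deposited table. skr-13 had the lowest value of the family, -2.31 (SE 1.36), with a base mean of 6.66 in the authors' deposited table for the double mutant. Of 17 genes of other cullins and of the neddylation cycle that activates them, 0 were called in any table, 13 of them having an adjusted p for the double mutant, and their median there was 0.02. cul-1, the cullin that works with SKR-1, had 1.05 (SE 0.98) and rfl-1, a subunit of the enzyme that activates the cullin modifier, had 1.38 (SE 0.95) in the authors' deposited table. At an unadjusted p below 0.05 in the double mutant, 1 Skp1-related gene (skr-2) and 0 genes of the cullin list were higher, and 0 of either list were lower, while in met-2 1 Skp1-related gene was lower. By that measure 1.74% of all transcripts were higher and 1.07% lower in the double mutant, and 0.519% were lower in met-2.

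eol-1 encodes a protein related to the mammalian decapping exonuclease DXO and is known in worms for its role in olfactory learning. Its base mean in the authors' deposited tables came to 49.98 for spr-5, 51.7 for met-2 and 1577 for the double mutant. These stand for 164 to 228 reads, 186 to 243 reads and 5788 to 8009 reads. On the log2 scale the authors' deposited tables gave fold changes of 6.39 (SE 1.04) for the double mutant, 1.85 (SE 0.83) for met-2 and 1.58 (SE 0.89) for spr-5. The values in the 2 single mutants lay within 1 SE of each other, and neither passed the adjusted p. No test of the double mutant against a single mutant is given, because the comparisons share N2 and no table holds single libraries.

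**Figure D2:**
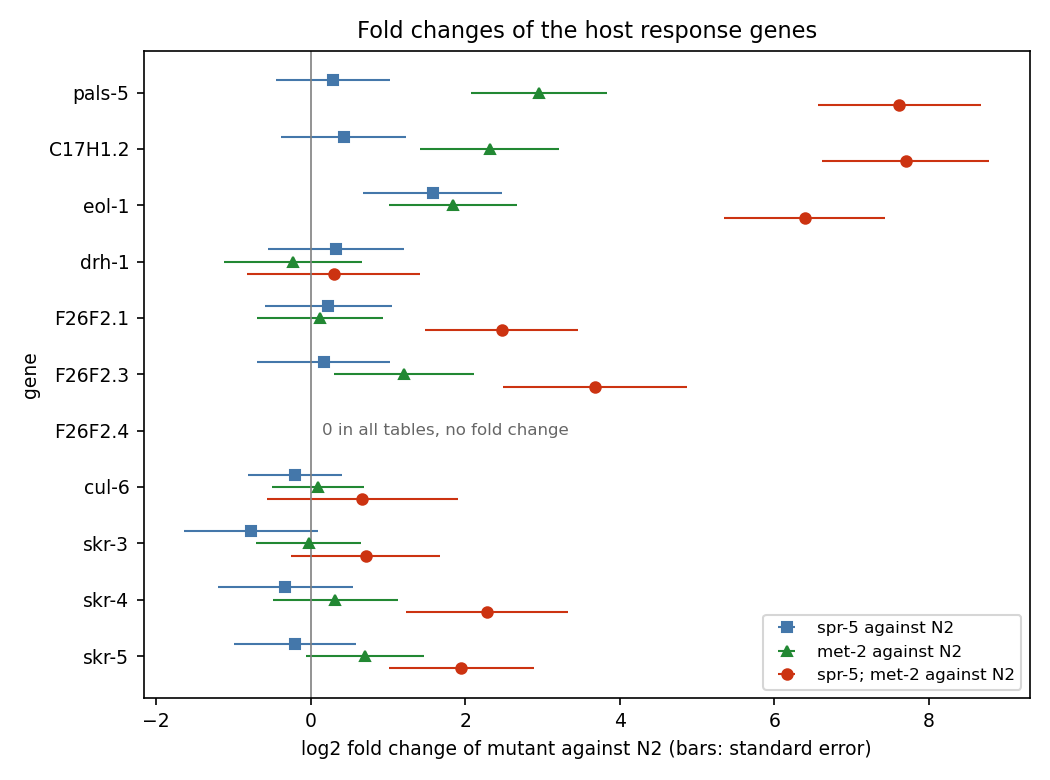
Log2 fold change of each gene in each mutant against N2, with bars of 1 standard error as deposited by the authors; F26F2.4 has none. The values of C17H1.2, pals-5 and eol-1 in the double mutant, 7.70, 7.62 and 6.39, lie well to the right of the others. The 3 values of drh-1 overlap around 0. The degree of shrinkage differs between the mutants.

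drh-1 had the smallest fold change of the 9 genes in the double mutant. Its base means in the authors' deposited tables were 40.9 for spr-5, 28.03 for met-2 and 34.5 for the double mutant, the last from 127 to 175 reads. The log2 fold changes in the authors' deposited tables were 0.30 (SE 1.12) for the double mutant, -0.23 (SE 0.89) for met-2 and 0.33 (SE 0.88) for spr-5. The 95% interval in the double mutant, -1.90 to 2.496 on the log2 scale, includes the values of F26F2.1, skr-4 and skr-5 and lies below those of F26F2.3, eol-1 and C17H1.2. The tables hold 1 of the 2 RefSeq transcripts of drh-1.

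Other genes of antiviral RNA interference were also without a call. Of 20 matched, 0 were called by DESeq2 in any of the authors' deposited tables, and the median log2 fold change in the double mutant was 0.34. At an unadjusted p below 0.05, 1 gene was higher in the double mutant and 1 in spr-5, and both times it was rrf-1, which encodes an RNA-dependent RNA polymerase. By that measure 1.74% of all transcripts were higher in the double mutant and 0.871% in spr-5. rrf-1 had 3.04 (SE 1.25) for the double mutant, 0.44 (SE 0.86) for met-2 and 1.96 (SE 0.92) for spr-5 in the authors' deposited tables. rrf-2, of the same family, had 1.85 (SE 0.96) in the double mutant with a base mean of 1293 in the authors' deposited table. dcr-1 and rde-4, which encode Dicer and a double-stranded RNA binding protein that work with DRH-1, had 0.63 (SE 0.92) and 1.19 (SE 1.05) there.

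F26F2.1 and F26F2.3 are genes of unknown function that rise in worms infected by microsporidia. F26F2.1 had base means of 63.0 for spr-5, 55.3 for met-2 and 214 for the double mutant, going by the authors' deposited tables. Its log2 fold changes in the authors' deposited tables were 2.47 (SE 0.99) for the double mutant, 0.12 (SE 0.81) for met-2 and 0.23 (SE 0.82) for spr-5. Its level thus differed little between the tables of the single mutants.

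F26F2.3 had base means of 6.70 for spr-5, 16.1 for met-2 and 82.4 for the double mutant, going by the authors' deposited tables, or 22 to 30, 58 to 75 and 303 to 418 reads. For this gene the authors' deposited tables gave 3.68 (SE 1.19) for the double mutant, 1.21 (SE 0.91) for met-2 and 0.17 (SE 0.86) for spr-5. The value in the double mutant exceeded the smallest called rise of that table, 3.57, and was not called itself. Its SE was larger than those of C17H1.2 and eol-1. F26F2.5, a response gene 3 places from F26F2.3, had 4.51 (SE 1.30, adjusted p 0.0643) in the double mutant with a base mean of 18.7 in the authors' deposited table. F26F2.2, between F26F2.1 and F26F2.3, was listed at 0 there.

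C17H1.2 is a gene of unknown function on chromosome I, among genes of the pals family, and its model encodes 73 residues. Its base mean in the authors' deposited tables came to 4.01 for spr-5, 19.5 for met-2 and 888 for the double mutant. These stand for 14 to 18 reads, 71 to 92 reads and 3260 to 4510 reads. The spr-5 table limits the mean of N2 to at most 8.01 scaled counts, on a scale set separately from that of the other tables.

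The log2 fold changes of C17H1.2 in the authors' deposited tables were 7.70 (SE 1.08) for the double mutant, 2.32 (SE 0.90) for met-2 and 0.43 (SE 0.81) for spr-5. The first of these was the highest of the 27634 fold changes for the double mutant, and the value in met-2 ranked 75 in its table without passing the adjusted p. pals-5, next in rank in the double mutant, had 7.62 (SE 1.05) there, 2.96 (SE 0.88) for met-2 and 0.29 (SE 0.74) for spr-5 in the authors' deposited tables. By these values, which were shrunken to different degrees, both genes were highest in the double mutant and near 0 in spr-5. The C17H1.2 model shares 114 of its 660 exonic bases with pals-13 on the same strand, so reads there cannot be told apart. pals-13 had a base mean of 26.7 in the authors' deposited table for the double mutant, against 888 for C17H1.2.

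**Figure D3:**
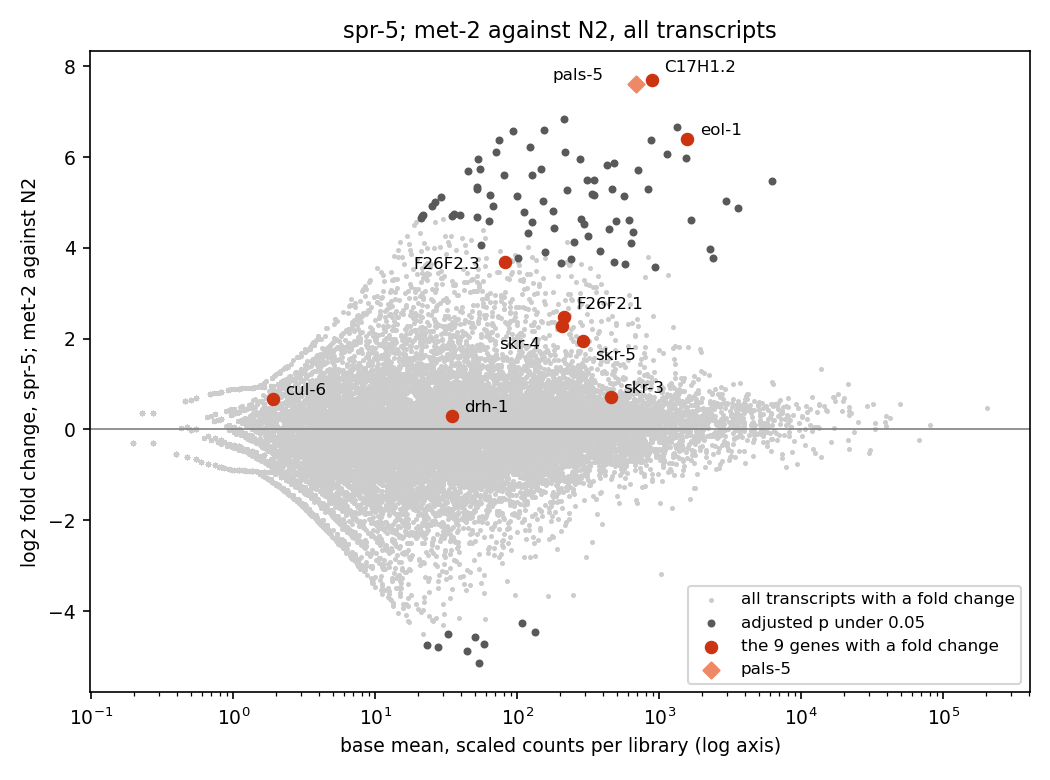
Log2 fold change against base mean (log axis) for all 27634 transcripts with a fold change in the double mutant against N2; dark points passed the authors' adjusted p of 0.05, and the coloured points are the 9 genes with a fold change and pals-5. C17H1.2, eol-1 and pals-5 lie among the highest called points, while drh-1, cul-6 and skr-3 lie within the grey cloud.

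Across the 9 genes with a fold change, the median log2 fold change in the authors' deposited tables was 2.28 for the double mutant (range 0.30 to 7.70), 0.32 for met-2 (range -0.23 to 2.32) and 0.17 for spr-5 (range -0.77 to 1.58). Values of the single mutants were pulled toward 0 more strongly, and how much of these differences comes from shrinkage was not tested. Values above 0 numbered 9 of 9 for the double mutant, 7 for met-2 and 5 for spr-5. Among all transcripts with a fold change, 43.2% were above 0 for the double mutant, 51.0% for met-2 and 54.4% for spr-5. Over all transcripts the medians of the authors' deposited tables were -0.17 for the double mutant, 0.01 for met-2 and 0.06 for spr-5. At an unadjusted p below 0.05, 6 of the 9 were higher and 0 lower in the double mutant, where 1.74% of all transcripts were higher and 1.07% lower. In met-2 these were C17H1.2 and eol-1, 2 of 9 higher and 0 lower, where 0.901% of all transcripts were higher and 0.519% lower. For spr-5 there were 0 of 9 in either direction, where 0.871% were higher and 0.283% lower. The 6 genes in the double mutant were C17H1.2, eol-1, F26F2.1, F26F2.3, skr-4 and skr-5.

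Set per kilobase of transcript, the order of the levels differed between tables. In the authors' deposited table for spr-5, skr-3 led with a base mean of 339 per kb, followed by skr-5 with 167, skr-4 with 73.2, eol-1 with 41.96, F26F2.1 with 31.6 and drh-1 with 12.38. F26F2.3 with 6.79, C17H1.2 with 6.07 and cul-6 with 0.134 per kb came last in that table. For met-2 the authors' deposited table kept skr-3 at 429, skr-5 at 244, skr-4 at 92.6 and eol-1 at 43.4 per kb on top, and C17H1.2 came next with 29.6. For the double mutant, C17H1.2 and eol-1 led with base means of 1346 and 1324 per kb in the authors' deposited table, above skr-3 with 577, skr-5 with 469 and skr-4 with 302. F26F2.1 with 108, F26F2.3 with 83.6, drh-1 with 10.5 and cul-6 with 0.836 per kb followed in that table. Neighbours in these orders cannot be called different, because the tables give no spread of levels over libraries.

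By position, 7 of the 10 genes lie on chromosome V, which holds 26.3% of the 18112 protein-coding genes with a listed transcript. The others are cul-6 and drh-1 on chromosome IV and C17H1.2 on chromosome I. The 3 F26F2 genes lie in 1 stretch with F26F2.5. Among 51 other genes within 3 places of a member, 1 was called higher in the double mutant and 0 lower, with an adjusted p for 24 of them. Over all transcripts tested there, 0.636% were called higher and 0.0733% lower. The called neighbour was pals-2, 2 places from C17H1.2, with 6.08 (SE 0.95, adjusted p 4.33e-07) on the log2 scale in the authors' deposited table. The median log2 fold change of the neighbours was -0.01 for the double mutant, -0.02 for met-2 and 0.05 for spr-5.

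Of 43 neighbours with a fold change in the double mutant, 5 had an unadjusted p below 0.05. All were higher, namely pals-2, pals-10, F26F2.5, fbxa-188 and fbxa-189. By that measure 1.74% of all transcripts were higher and 1.07% lower. fbxa-188 and fbxa-189, F-box genes beside skr-5, had 2.302 (SE 1.13) and 2.35 (SE 1.05) on the log2 scale in the authors' deposited table. The neighbours of eol-1 with a fold change lay between -0.71 for sao-1 and 0.98 for end-1 in the authors' deposited table, all far below the 6.39 of eol-1. In spr-5 and met-2, 0 neighbours were called in the authors' DESeq2 tables, and 0 had an unadjusted p below 0.05. Of all transcripts tested, 0.0101% and 0.0647% were called higher in these. By the unadjusted p, 0.871% and 0.901% were higher.

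Of 7 regulators of the response, 0 were called in any table, and 0 had an unadjusted p below 0.05 in the authors' DESeq2 tables. pals-22, a repressor of the programme, had 0.95 (SE 0.99) on the log2 scale in the double mutant, 0.04 (SE 0.73) for met-2 and -0.75 (SE 0.83) for spr-5 in the authors' deposited tables. pals-25, which acts opposite to it, had -0.03 (SE 1.03) in the double mutant. zip-1, which encodes a transcription factor of the programme, had a base mean of 0.272 there, the worth of 1 read. It had no adjusted p in the double mutant or in met-2 and could not be called in these.

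**Figure D4:**
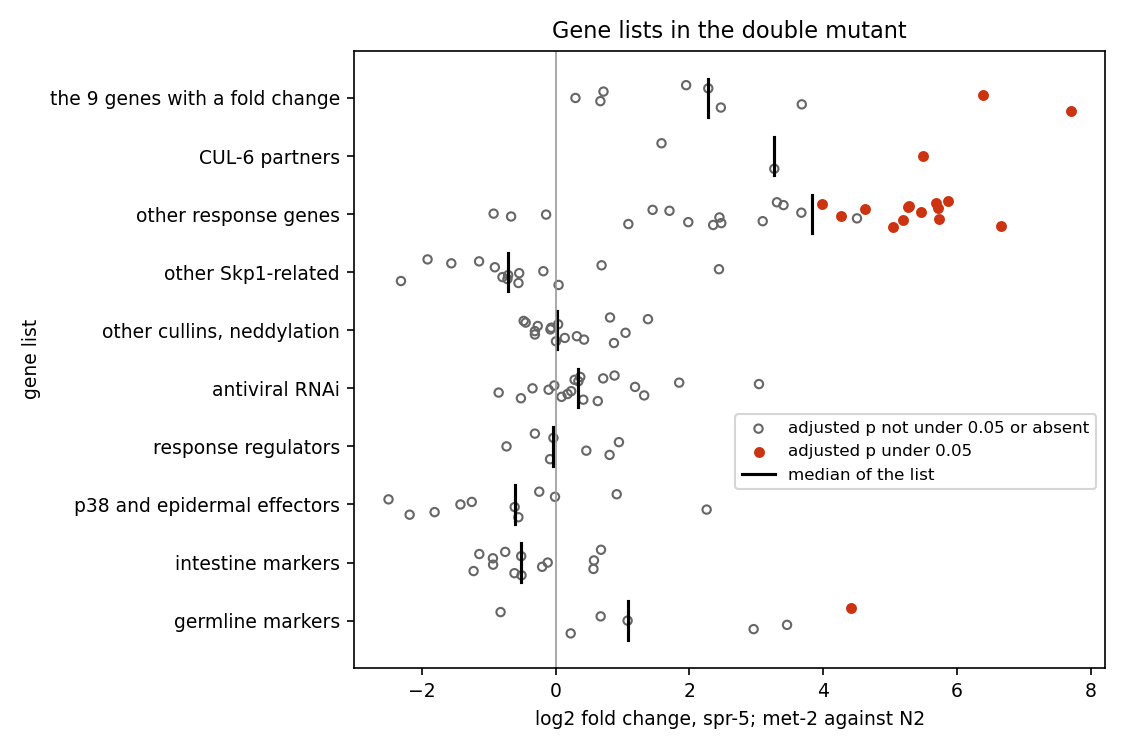
Log2 fold change in the double mutant against N2 of the genes in 10 lists; filled points passed the authors' adjusted p of 0.05, open points did not or have none, and each vertical bar is the median of its list. Called genes appear in 4 of the lists, with 2 among the 9 host response genes, 1 CUL-6 partner, 13 other response genes and 1 germline marker.

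A further list of response genes, put together from general knowledge with earlier results of these data known, does not stand as independent evidence of a direction. Of 32 matched, 28 had an adjusted p in the double mutant, and 13 were called higher and 0 lower. There 0.636% of 12272 transcripts were called higher and 0.0733% lower. The median log2 fold change of the list was 3.83 in the authors' deposited table. Of the 13, 6 were among 7 genes of the pals family, whose members may share reads, and 7 were among 25 others. The highest values outside the pals family were those of B0507.8 with 6.66 (SE 0.94), trpl-5 with 5.87 (SE 1.05), F20E11.17 with 5.74 (SE 1.11) and ddn-1 with 5.46 (SE 1.10) in the authors' deposited table. In met-2 and spr-5, 20 and 29 of the list had an adjusted p, and 0 were called by DESeq2. The medians of the list were 0.29 and 0.15 in the authors' deposited tables. At an unadjusted p below 0.05, 2 and 1 genes were higher, where 0.901% and 0.871% of all transcripts were higher. B0507.8 had 2.07 (SE 0.80) for met-2 and 1.73 (SE 0.87) for spr-5 in the authors' deposited tables, beside 1.85 and 1.58 for eol-1.

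Immune effectors outside the programme, among them targets of the p38 pathway and antimicrobial peptides of the epidermis, had 0 calls in every table. Of the 13 matched, 10 had an adjusted p for the double mutant, 11 for met-2 and 13 for spr-5. For the double mutant 0.636% of all transcripts tested were called higher and 0.0733% lower. The median log2 fold change of these effectors in the double mutant was -0.61 in the authors' deposited table. lys-7, a lysozyme gene, had -2.50 (SE 1.19) and the lectin gene clec-67 had -2.18 (SE 1.05) in the authors' deposited table for the double mutant. irg-2, an infection response gene, had 2.26 (SE 1.16) there with a base mean of 195. lys-7 and clec-67 were the 2 genes of the list with an unadjusted p below 0.05 there, and 1 gene was higher by that measure in met-2 and 0 were in spr-5. By that measure 1.07% of all transcripts were lower in the double mutant and 0.901% higher in met-2.

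Intestinal and germline markers were set beside these values, since the programme is known from the intestine and RNA came from whole larvae. In bulk RNA, fewer cells of a type and less RNA per cell cannot be told apart. Of 13 intestine markers, 0 were called by DESeq2 and 0 had an unadjusted p below 0.05 in any of the authors' deposited tables. Of these markers, 11 had an adjusted p for the double mutant, 12 for met-2 and 13 for spr-5. Of all transcripts tested in the double mutant, 0.636% were called higher and 0.0733% lower, and 0 calls among so few genes is near these shares. Their median log2 fold change was -0.51 for the double mutant, 0.13 for met-2 and -0.24 for spr-5, and their summed base means were 16236, 27385 and 22823 in those deposited tables of the authors. Most of each sum was asp-1, which encodes an intestinal protease and had 13783 for the double mutant, 24087 for met-2 and 19955 for spr-5 in the authors' deposited tables.

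Of 8 germline markers, syp-1, which encodes a protein of the synaptonemal complex, was called higher in the double mutant and in met-2. Of all transcripts tested, 0.636% were called higher in the double mutant and 0.0647% in met-2. syp-1 stands out from the other germline markers, which were not called. It had 4.42 (SE 0.99, adjusted p 0.00227) in the double mutant and 4.20 (SE 0.75, adjusted p 6.67e-05) in met-2 on the log2 scale of the authors' deposited tables. The germline median was 1.08 for the double mutant, 0.45 for met-2 and 0.21 for spr-5, and htp-1 and glh-1 had 3.46 (SE 1.09) and 2.96 (SE 0.97) in the double mutant, going by the authors' deposited table. him-3 was listed at 0 and pgl-1 had a base mean of 0.817 there. The summed base mean of germline markers was 4668 for the double mutant, 4177 for met-2 and 4277 for spr-5 in the authors' deposited tables, and cgh-1 alone held 3388 of the first. In the double mutant an adjusted p was given for 4 of 6 muscle, 3 of 6 nerve and 1 of 7 hypodermal markers, and these lists had 0 calls in every table and 0 genes with an unadjusted p below 0.05 in the authors' DESeq2 tables. The part of cell composition in the values of the 10 genes was not tested.

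The genes whose 3 fold changes lay nearest to the medians of the 9 members were R12C12.7, ftr-1, M03F4.6, dbd-13 and set-2. They were taken by Euclidean distance over the 3 comparisons, which share N2, from 6012 other genes whose base mean reached 50 for the double mutant. Their distances were between 0.155 and 0.260 on the log2 scale. R12C12.7, the nearest, had 2.18 for the double mutant, 0.42 for met-2 and 0.11 for spr-5 in the authors' deposited tables. set-2, which encodes a histone methyltransferase, had 2.15, 0.37 and -0.05 in the authors' deposited tables taken in that order. None of the 5 passed the adjusted p in the double mutant, which their choice near a median of 2.28 had fixed, since the smallest called rise there was 3.57.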

How the data were processed

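RNA-seq of whole starved L1 larvae covered 8 libraries in 4 groups. Per the submitters' processing notes, FastQC, Trimmomatic, featureCounts and DESeq2 2.11.40.2 were used with build ce10; aligner, annotation and strand setting are not given in the sources used here. The authors deposited 3 tables of 50832 RefSeq transcripts, 1 for each mutant against N2. The authors' base mean is a signal, the mean of DESeq2-scaled counts over 4 libraries, as deposited. The deposited fold change and its SE are log2 values shrunken by the authors. The deposited Wald score is the fold change divided by the SE. The deposited p-values are given unadjusted and adjusted, the adjusted ones for a part of the transcripts. The tables were normalized separately, and the count model planned for tables of counts was not used. Calls are the authors' adjusted p below 0.05, over the whole table.

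Symbols came from the RefSeq gene table of WBcel235 (46074 transcripts matched, 90.6%) and exon lengths from the Ensembl annotation of WBcel235; coordinates are not printed, as builds differ. Intervals are the fold change ± 1.96 SE. The members and lists were chosen with earlier results of these data known. Named genes are the members, pals-5, the targeted genes, called list genes and neighbours, up to 2 genes of each list with the smallest p in the double mutant, and the 5 nearest genes. The genes pals-10, pals-13, lsy-27, fbxa-188, fbxa-189, sao-1, end-1, F26F2.2, F26F2.5, skr-1, dcr-1, rde-4, pals-25, zip-1, rcs-1, irg-2 and marker genes quoted for their level were added after their values were seen. The Benjamini-Hochberg recomputation was tested on simulated data. Python 3.11.15 and pandas 2.3.3 were used. Promoter motifs and protein identities were planned and are not analysed here.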

Additional observations from a re-analysis of the deposited data

How the results depend on the processing

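No paired analysis was possible because replicate numbers and single-library values are not among the deposited columns, and no replicate could be left out for the same reason. Alternatives for list and neighbour counts were chosen after seeing the data. The counts of members called (2 in the double mutant, 0 in met-2, 0 in spr-5) were equal at an adjusted p below 0.01, with Benjamini-Hochberg adjustment over all p-values, with a base mean of at least 10, and with the transcript of largest base mean in each table. The last chose the same transcripts, and in spr-5 the recomputation equals the deposited adjustment. With a base mean of at least 10, which leaves out cul-6 and, in spr-5, also C17H1.2 and F26F2.3, the median log2 fold change of the members was 2.38 in the double mutant (2.28 without that limit), 0.51 in met-2 (0.32) and 0.02 in spr-5 (0.17). Of the 13 further response genes called in the double mutant, 12 passed at 0.01 and 12 after the recomputation. Few reads were counted for cul-6, and whether reads were left out in counting was not tested. In the double mutant no rise below 3.57 on the log2 scale was called for any transcript.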
